A study of Mus musculus with 161 samples.

Results

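The genes described here are 10 rows of the expression table, of 43280 in all, that encode high mobility group (HMG) proteins and histone H2A variants: Hmgb1, Hmgb2, Hmgb3, Hmgn1, Hmgn2, Hmgn3, Hmga1, H2afv, H2afx and H2afz. They were chosen by name, and all 10 passed the filter that set 14003 genes as measured because over 1 TPM was found in 10% or more of cells in 1 population. Their transcripts were read in 161 single cells of untreated C57BL/6 mice, captured on the Fluidigm C1 microfluidic system and divided by surface gate into 3 populations. The first held 66 common monocyte progenitors of the bone marrow (cMoP), which were lineage-negative, Ly6C+, CD115+ and CD135- cells that carried CD117. The second held 57 bone marrow (BM) monocytes, called marrow monocytes in the text, which had the same phenotype but lacked CD117, and the last held 38 blood monocytes, which were CD115+ and CD11b+ with high Ly6C. No label names an animal, so each population counted as 1 sample, cells were not treated as replicates, and no difference below has a test or a replicate check.

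HMG proteins are small, abundant chromatin proteins that bind DNA or nucleosomes without reading a long sequence motif. The HMGB proteins bend DNA with their HMG box domains, the HMGA proteins grip AT-rich stretches with AT hooks, and the HMGN proteins bind the nucleosome core and compete with linker histone. Variant histones replace the replication-dependent histones in selected nucleosomes: H2A.Z is placed at promoters and enhancers by dedicated exchange complexes, and H2A.X is the variant that is phosphorylated beside DNA breaks. Several of these genes, Hmgb2 and H2afx among them, are known for higher transcript levels in dividing cells, and monocytes stop dividing as they mature from the cMoP.

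Promoter windows of 300 bases, from 250 before to 50 after the annotated start, were available from RefSeq (GRCm38.p6) for 8 of the 10 genes, and for Hmgb1 and Hmga1 at more than 1 start. Hmgn3 and H2afx had none. The windows printed are those of Top2a, the topoisomerase whose transcript marked cycling cells here, of Hmgb2, Hmgn2 and H2afv, the members with the widest differences between marrow and blood monocytes, and of H2afz, the most abundant member. Each reads 5′ to 3′ on the strand of its gene, and capitals mark CCAAT or its reverse complement ATTGG, the core bound by NF-Y, and TTTGAA or TTCAAA, the core of the CHR element of cell cycle promoters.
Top2a: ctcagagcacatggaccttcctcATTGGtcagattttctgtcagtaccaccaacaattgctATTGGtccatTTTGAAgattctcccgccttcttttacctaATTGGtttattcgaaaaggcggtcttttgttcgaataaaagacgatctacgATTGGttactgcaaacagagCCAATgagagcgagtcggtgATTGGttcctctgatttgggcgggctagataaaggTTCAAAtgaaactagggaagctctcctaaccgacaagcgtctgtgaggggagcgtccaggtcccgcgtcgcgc
Hmgb2: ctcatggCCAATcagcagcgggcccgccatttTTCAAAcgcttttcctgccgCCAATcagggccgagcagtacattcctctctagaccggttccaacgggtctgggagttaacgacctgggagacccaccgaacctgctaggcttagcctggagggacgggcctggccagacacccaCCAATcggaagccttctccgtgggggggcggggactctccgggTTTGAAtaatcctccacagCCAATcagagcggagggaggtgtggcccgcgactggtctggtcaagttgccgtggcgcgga
Hmgn2: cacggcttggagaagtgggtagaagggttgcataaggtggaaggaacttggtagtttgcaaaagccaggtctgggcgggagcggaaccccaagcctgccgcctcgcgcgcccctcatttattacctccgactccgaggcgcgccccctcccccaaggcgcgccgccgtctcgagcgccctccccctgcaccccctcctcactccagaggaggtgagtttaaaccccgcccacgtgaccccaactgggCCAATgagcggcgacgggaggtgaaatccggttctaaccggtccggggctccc
H2afv: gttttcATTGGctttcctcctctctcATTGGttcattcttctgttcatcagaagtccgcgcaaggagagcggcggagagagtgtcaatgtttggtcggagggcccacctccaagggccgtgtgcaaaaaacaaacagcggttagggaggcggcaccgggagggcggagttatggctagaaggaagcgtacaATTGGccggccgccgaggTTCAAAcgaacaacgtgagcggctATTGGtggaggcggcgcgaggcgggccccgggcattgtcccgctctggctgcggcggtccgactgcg
H2afz: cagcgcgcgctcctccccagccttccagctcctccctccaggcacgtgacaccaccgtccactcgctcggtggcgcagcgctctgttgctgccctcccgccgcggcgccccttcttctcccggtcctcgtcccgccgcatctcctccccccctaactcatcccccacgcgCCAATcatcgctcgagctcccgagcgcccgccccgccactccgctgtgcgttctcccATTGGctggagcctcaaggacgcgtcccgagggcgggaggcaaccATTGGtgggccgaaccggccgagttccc
The Top2a window lies at chr11:99024140-99024439 on the minus strand and held 6 CCAAT and 2 TTTGAA matches over both strands. The Hmgb2 window (chr8:57511593-57511892, plus strand) held 4 CCAAT and 2 TTTGAA matches, and the H2afv window (chr11:6444394-6444693, minus strand) held 4 CCAAT and 1 TTTGAA match. The H2afz window (chr3:137864237-137864536, plus strand) held 3 CCAAT matches, and the Hmgn2 window (chr4:133967942-133968241, minus strand) held 1, with no TTTGAA in either. Hmgb3 also carried both motifs, with 3 CCAAT and 1 TTTGAA match.

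At least 1 CCAAT stood in a window of 7 of the 8 genes, and in 37.4% of all 32851 promoter windows of the same length. 3 or more CCAAT stood in a window of 5 of the 8 genes (Hmgb1, Hmgb2, Hmgb3, H2afv and H2afz), and in 3.37% of all windows. Both motifs together stood at 3 of the 8 genes and in 6.95% of all windows, while TTTGAA, with or without CCAAT, was found in 17.9% of all windows. A pair of E2F cores, TTTGGCGC and TTTCCCGC, searched on both strands, gave 0 matches at the 8 genes and matched 1.56% of all windows. No match overlapped another, and such matches describe letters in a window, not a site in use.

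On GRCm38.p6 all 10 genes are protein coding and lie on 9 chromosomes. The Hmgb genes lie at chr5:149046702-149053057 (Hmgb1), chr8:57511843-57515999 (Hmgb2) and chrX:71555917-71560673 (Hmgb3), and Hmga1 lies at chr17:27556574-27563672. The Hmgn genes lie at chr16:96121588-96127725 (Hmgn1), chr4:133964739-133967991 (Hmgn2) and chr9:83109942-83147358 (Hmgn3). H2afv, H2afx and H2afz, which RefSeq now calls H2az2, H2ax and H2az1, lie at chr11:6427226-6444511, chr9:44334715-44336077 and chr3:137864487-137866922.

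Several facts about the libraries touch every result. Cells had a median of 6661.5 genes above 1 TPM in cMoP, 4719 in marrow monocytes and 4319.5 in blood monocytes, so a difference from cMoP also compares libraries with more detected genes. 60 cMoP came from 1 flow cell lane and both monocyte populations from another, with 6 cMoP of unstated lane, so cMoP and monocytes cannot be told apart from their flow cells. 11 cMoP libraries had over 15% mitochondrial TPM, and 3 cMoP and 1 blood library had under 2% ribosomal protein TPM. Kit, which encodes CD117, was above 1 TPM in 39 of 66 cMoP and in 0 of 57 marrow and 0 of 38 blood monocytes. Of the B cell markers, Cd79a and Pax5 were listed at 0 in all 3 populations, as were Cd3e, Ncr1 and Gzma of T and NK cells. Other markers of these lists were present in cMoP: Cd79b was above 1 TPM in 65.2% of them (mean 95.6 TPM) and Nkg7 in 80.3% (mean 301 TPM). The summed B cell list passed 10 TPM in 39 of 66 cMoP, 3 of 57 marrow monocytes and 5 of 38 blood monocytes, and the T and NK list in 48, 2 and 1 of them. Their part in the differences from cMoP was not tested. Since values are shares of a fixed total, fewer transcripts per cell cannot be seen, and a transcript listed at 0 may have been lost in capture.

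The HMGB genes were highest in cMoP and lowest in blood. Hmgb1, the most abundant HMGB and an architectural DNA-bending protein, ranged from 36.6 to 5287 TPM in cMoP (median 1911), from 0 to 3865 TPM in marrow monocytes (median 610.1) and from 0 to 2253 TPM in blood monocytes (median 384). The ranges overlapped widely, and all but 3 of the 161 cells had Hmgb1 above 1 TPM. Hmgb2, the paralog tied to proliferating cells, ranged from 48.9 to 643 TPM in cMoP (median 264), from 2.16 to 1006 TPM in marrow monocytes (median 83.0) and from 0 to 642 TPM in blood monocytes (median 8.18). 24 of 57 marrow monocytes and 30 of 38 blood monocytes lay below the lowest cMoP for Hmgb2, while the highest values of all stood in marrow monocytes. Hmgb3, a paralog known from hematopoietic progenitors, reached 916 TPM in cMoP (median 22.03), 172 TPM in marrow monocytes and 41.98 TPM in blood monocytes, with a lowest value of 0 in every population. More than 1 TPM of Hmgb3 was found in 45 of 66 cMoP, 14 of 57 marrow monocytes and 6 of 38 blood monocytes, so it was a transcript of most cMoP and of a minority of monocytes.

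Hmga1, the AT-hook protein common in progenitor and tumour cells, ranged from 0 to 985 TPM in cMoP with a median of 181 TPM. The marrow monocytes reached 528 TPM and the blood monocytes 356 TPM, both with a median of 0 TPM. It was above 1 TPM in 64 of 66 cMoP, in 19 of 57 marrow monocytes and in 7 of 38 blood monocytes. How the estimates divided reads among related sequences is uncertain for Hmga1, Hmgb1 and Hmgn2.

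Among the HMGN genes, Hmgn2, whose protein loosens nucleosome packing, was far the most abundant. It ranged from 57.6 to 3755 TPM in cMoP (median 1963), from 0 to 1998 TPM in marrow monocytes (median 337) and from 0 to 1413 TPM in blood monocytes (median 0). 21 of 57 marrow monocytes and 32 of 38 blood monocytes lay below the lowest cMoP, and Hmgn2 was above 1 TPM in 66, 43 and 15 cells of cMoP, marrow and blood monocytes. Hmgn1, which also binds the nucleosome core, was above 1 TPM in 56 of 66 cMoP, 12 of 57 marrow monocytes and 4 of 38 blood monocytes, with highest values of 208, 361 and 19.8 TPM in that order of stages. Hmgn3 was above 1 TPM in 31 of 66 cMoP and 4 of 57 marrow monocytes and was listed at 0 in all 38 blood monocytes. The exact 95% interval of that 0 of 38 reaches 9.25% of cells. Blood monocytes were therefore not shown to differ from marrow monocytes in Hmgn3 detection (7.02%, exact 95% interval 1.95% to 17.004%).

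The H2A variants did not share 1 pattern. H2afz, the main H2A.Z gene, was the highest member in every population and ranged from 196 to 4345 TPM in cMoP (median 2732), from 109 to 7681 TPM in marrow monocytes (median 2145) and from 4.91 to 5395 TPM in blood monocytes (median 843). Its mean was 2562 TPM in cMoP, 2573 TPM in marrow monocytes and 1282 TPM in blood monocytes, and 10 of 57 marrow monocytes lay above the highest cMoP. H2afv, which encodes the second H2A.Z protein, ranged from 0 to 959 TPM in cMoP (median 121), from 0 to 839 TPM in marrow monocytes (median 46.8) and from 0 to 302 TPM in blood monocytes (median 0). More than 1 TPM of H2afv was found in 61 of 66 cMoP (92.4%, exact 95% interval 83.2% to 97.5%), 40 of 57 marrow monocytes (70.2%, 56.6% to 81.6%) and 4 of 38 blood monocytes (10.53%, 2.94% to 24.8%), intervals that cover the counting of cells only. The step with the wider gap in detection of H2afv therefore lay between marrow and blood. H2afx, the gene of H2A.X, was above 1 TPM in 42 of 66 cMoP, 11 of 57 marrow monocytes and 3 of 38 blood monocytes, with highest values of 339, 227 and 206 TPM.

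The order of the members by mean log2(TPM + 1) was H2afz, Hmgb1, Hmgn2 and Hmgb2 at the top in both cMoP and marrow monocytes, while in blood Hmgb2 stood above Hmgn2. H2afz and Hmgb1 in cMoP, at 11.11 ± 0.95 and 10.80 ± 1.01 (SD over 66 cells), differed by less than their spread over cells, as did Hmgn2 (6.35 ± 4.21) and Hmgb2 (6.20 ± 2.29) in the 57 marrow monocytes. Hmgn3 had the lowest mean in all 3 populations. Summed over the 10 genes, cells held a median of 7580 TPM in cMoP, 3769 TPM in marrow monocytes and 1945 TPM in blood monocytes, and the median number of the 10 genes above 1 TPM was 9, 5 and 4. TPM are scaled by transcript length, so these levels can be set beside each other between genes.

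**Figure D1:**
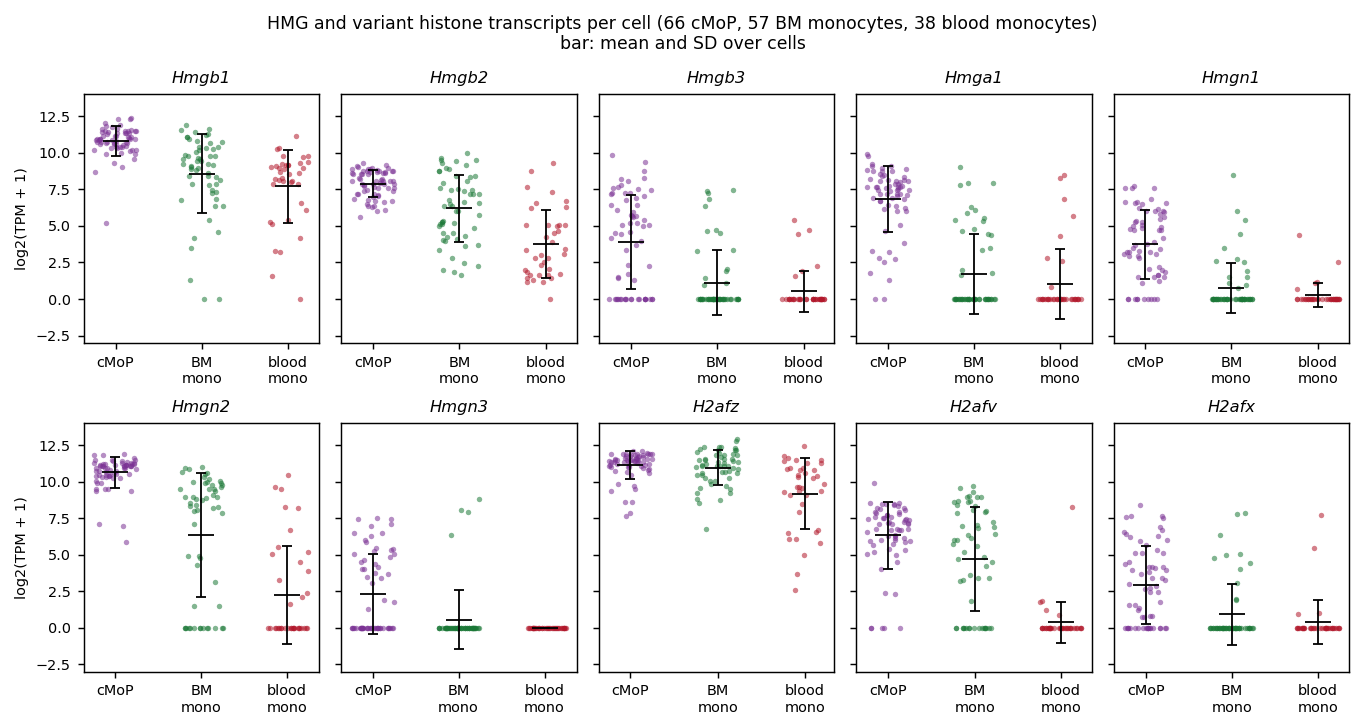
Each panel shows 1 of the 10 genes as log2(TPM + 1) on the y axis, with 1 point per cell for the 66 cMoP, 57 marrow monocytes and 38 blood monocytes (mono) and a bar for the mean and SD over cells. H2afz and Hmgb1 stay high in all 3 populations, whereas most blood monocytes lie at 0 for Hmgn2, H2afv and Hmga1.

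marrow monocytes had lower mean log2(TPM + 1) than cMoP for all 10 genes, and 9 of them were lower by at least 1 log2 unit, a size that 30.8% of the 14003 measured genes passed in that direction. None of the 10 was higher by that much, beside 3.94% of all measured genes. The median difference was -2.13 over the 10 genes and -0.45 over all measured genes. The widest gaps were those of Hmga1, at -5.11, and of Hmgn2, at -4.27, which ranked 39 and 124 from the lowest of all measured genes. Hmgn1 differed by -2.97, Hmgb3 by -2.80, Hmgb1 by -2.24, H2afx by -2.02, Hmgn3 by -1.76, Hmgb2 by -1.68 and H2afv by -1.63. H2afz differed by -0.16, less than its SD over cells, and by 0.03 when cells were scaled by median ratios instead of to a fixed total. Among cells with 4500 to 6000 detected genes (33 marrow monocytes and 17 cMoP), 4 of the 10 genes were lower by at least 1, beside 12.9% of all measured genes. The median was -0.63 there, and H2afv (0.76) and H2afz (0.94) were higher in marrow monocytes. Most of those 17 cMoP were libraries of over 15% mitochondrial or under 2% ribosomal protein TPM. Without such libraries, more of the 10 genes were lower by at least 1 in that window, as given in the last section. As log2 ratios of mean TPM, 6 genes were lower by at least 1, beside 23.9% of all measured genes. The median was then -1.32, with Hmgb2 at -0.54, Hmgn3 at -0.39 and H2afv at 0.015.

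Blood monocytes in turn had lower means than marrow monocytes for all 10 genes, beside 59.8% of all measured genes. Of the 10, 4 were lower by at least 1 log2 unit, beside 9.66% of all measured genes. None was higher by 1, beside 1.96%. These were H2afv (-4.31), Hmgn2 (-4.08), Hmgb2 (-2.42) and H2afz (-1.78). H2afv and Hmgn2 ranked 4 and 7 from the lowest of all 14003 genes, and Hmgb2 ranked 92. Hmgb1 (-0.87), Hmga1 (-0.67), Hmgb3 (-0.57), H2afx (-0.52) and Hmgn1 (-0.50) lay within 1 unit, and Hmgn3 was listed at 0 in blood. The median over the 9 genes other than Hmgn3 was -0.87, against -0.10 over all measured genes. When mean TPM were compared as a log2 ratio, 8 of the 10 genes were lower by at least 1. At 4500 to 6000 detected genes (14 blood and 33 marrow monocytes) the count was 6, with Hmgb1 at -1.68 and H2afx at -1.19, and the median over the 10 genes was -1.37, against -0.77 over all cells. The share of all measured genes, which moves with the setting, is not given here for either alternative.

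Between blood monocytes and cMoP, all 10 genes were lower in blood by at least 1 log2 unit, beside 37.7% of all measured genes, with 4.28% of those higher by 1. Hmgn3, counted among the 10, passed the filter only through cMoP. Hmgn2 differed by -8.35 and ranked 6 from the lowest of all genes, followed by H2afv (-5.94), Hmga1 (-5.78) and Hmgb2 (-4.10). H2afz had the smallest gap, -1.93. On the scale of mean log2(TPM + 1), the gap of Hmga1 was wider at the first of the 2 steps, those of H2afv and H2afz at the second, and Hmgn2 had large gaps at both. Hmgn1 and Hmgb3 also had the wider gap at the first step on that scale, but their marrow means were already near 0, at 0.76 and 1.11. As log2 ratios of mean TPM, Hmgn1 differed by -2.56 between blood and marrow monocytes and by -1.89 between marrow monocytes and cMoP, and Hmgb3 by -2.06 and -2.56, so no order of steps was read for them.

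**Figure D2:**
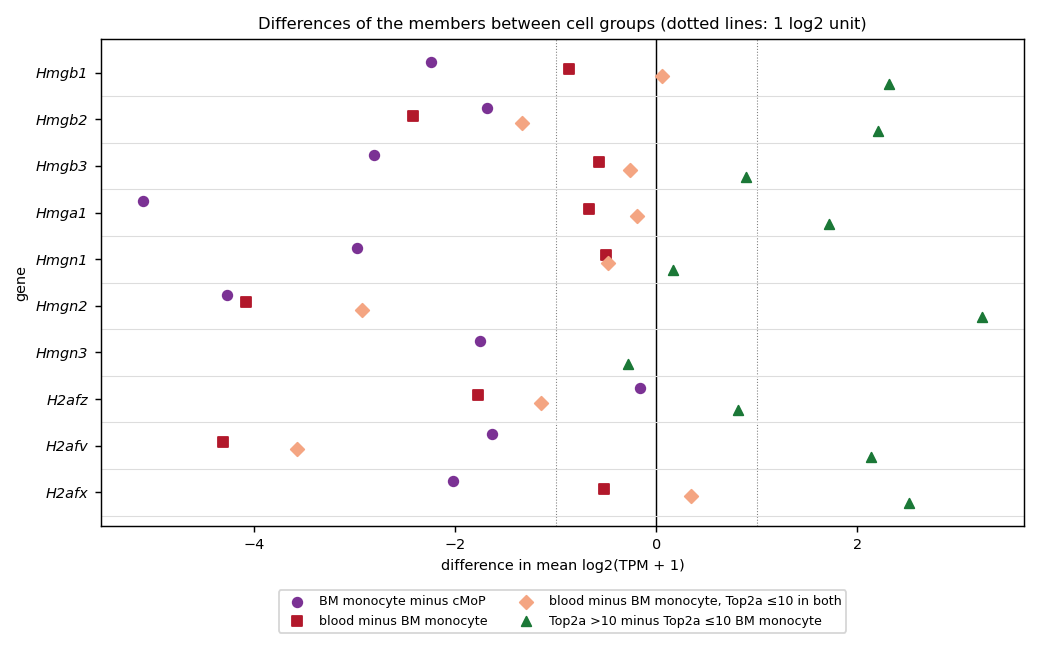
Differences in mean log2(TPM + 1) on the x axis for each of the 10 genes on the y axis, later population minus earlier and marrow monocytes with Top2a above 10 TPM minus the others, and dotted lines at 1 log2 unit. Orange diamonds give blood minus marrow monocytes among cells with Top2a at or below 10 TPM. H2afv and Hmgn2 lie furthest to the left between blood and marrow monocytes (-4.31 and -4.08), and Hmgn3 is left out where blood, at 0 throughout, enters.

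Cycling was read from Top2a, which decatenates DNA in S, G2 and M phase, with a threshold of 10 TPM. 18 of 57 marrow monocytes (31.6%) lay above it, as did 63 of 66 cMoP and 6 of 38 blood monocytes. The blood cells above it reached at most 17.4 TPM, and Mki67, the Ki-67 proliferation antigen, was above 10 TPM in 12 of the 18 marrow monocytes and in 5 of the 39 others. These are cells divided by 1 transcript, not populations named by the study. The 18 cells also had more detected genes, a median of 5236 against 4405 in the 39 others.

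Within marrow monocytes, 9 of the 10 genes had higher means in the cells with Top2a above 10 TPM, beside 62.8% of all measured genes. Of the 10, 6 were higher by at least 1 log2 unit, beside 14.5% of all measured genes. None was lower by 1, beside 2.48%. The median difference was 1.93 over the 10 genes and 0.16 over all measured genes. Among cells with 4500 to 6000 detected genes (17 with Top2a above 10 TPM and 16 others), 6 genes were again higher by at least 1 and the median was 1.25. The share of all measured genes in that window is not given here. Hmgn2 ranged from 0 to 1998 TPM in the 18 cells with Top2a above 10 TPM (median 829) and from 0 to 1249 TPM in the other 39 (median 226), and its mean differed by 3.25 on the log2 scale. Hmgb2 ranged from 3.81 to 1006 TPM (median 387) in the 18 cells and from 2.16 to 482 TPM (median 38.3) in the other 39, a difference of 2.21. Hmgb1 ranged from 161 to 2985 TPM (median 1499.8) in the 18 cells and from 0 to 3865 TPM (median 472) in the other 39, a difference of 2.32. At 4500 to 6000 detected genes Hmgn2 differed by 2.02 and Hmgb1 by 1.02, while Hmgb2 differed by 2.37. In each of these genes the medians lay apart while the ranges overlapped, and for Hmgb1 the highest cell had Top2a at or below 10 TPM.

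H2afx came nearest to a transcript of the cells with Top2a alone. It was above 1 TPM in 10 of the 18 cells (55.6%, exact 95% interval 30.8% to 78.5%), up to 227 TPM, and in 1 of the other 39 (2.56%, 0.0649% to 13.5%), at 25.8 TPM, and its mean differed by 2.52. H2afv was above 1 TPM in 16 of 18 and 24 of 39 cells and differed by 2.14, and Hmga1 in 10 of 18 and 9 of 39 cells and differed by 1.72. H2afz had a median of 3602 TPM in the 18 cells and 1942 TPM in the other 39, a difference of 0.81, with every cell of both sets above 100 TPM. Hmgb3 differed by 0.89, Hmgn1 by 0.16 (-0.18 at 4500 to 6000 detected genes) and Hmgn3 by -0.28, and these 3 were detected in at most 6 of the 18 cells. Their differences lay below the SD over cells of both sets, as did those of Hmgn2, H2afv, Hmga1 and H2afz. Those of Hmgb1, Hmgb2 and H2afx lay below the SD of 1 set only. On this scale Hmgn2 had a wider gap than Hmgn1 and Hmgn3, which few cells held. By the log2 ratio of mean TPM, H2afx had the widest gap of the 10 (4.47), and Hmgn2 differed by 1.63. Hmgn1 then differed by -1.59 and Hmgn3 by -2.21. The Hmgn1 value leans on 1 cell of the other 39, at 361 TPM. Hmgn1 was above 1 TPM in 5 of 18 and 7 of 39 cells, and Hmgn3 in 1 of 18 and 3 of 39. No direction was read for either.

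**Figure D3:**
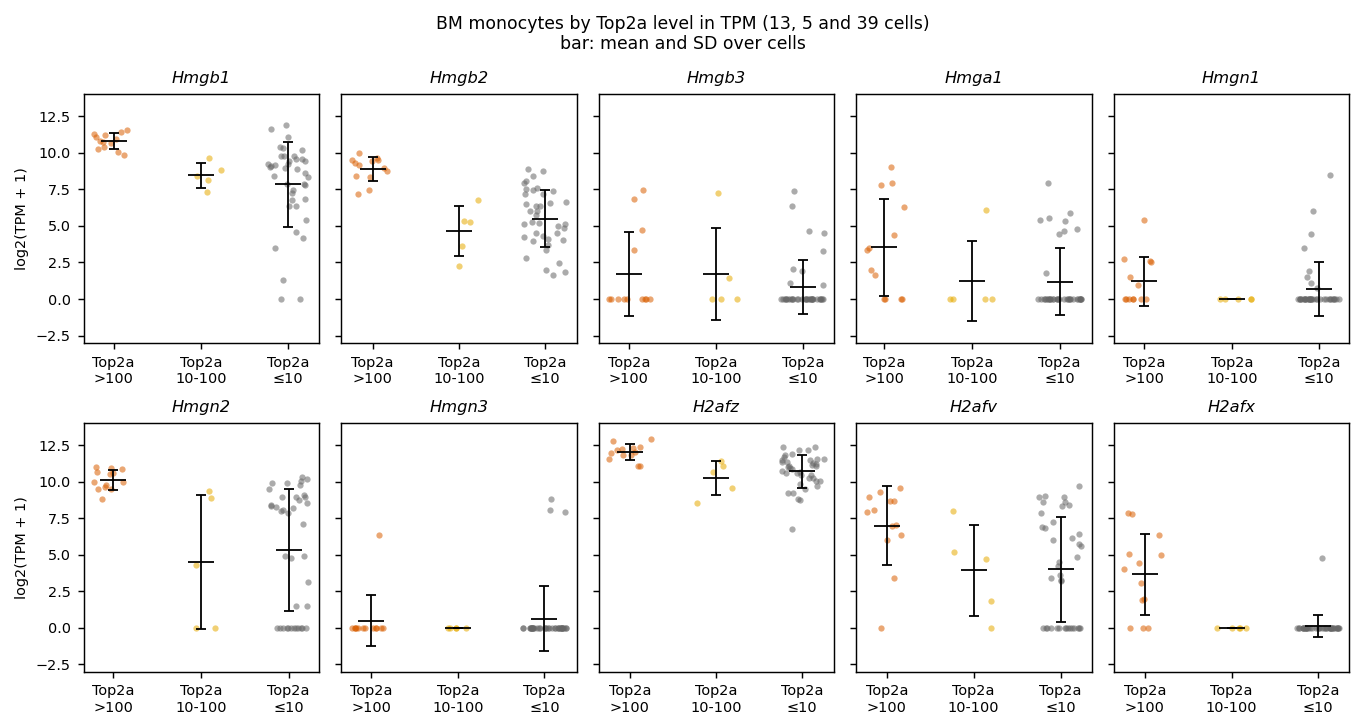
Each panel shows 1 gene as log2(TPM + 1) on the y axis in single marrow monocytes, from left to right the 13 with Top2a over 100 TPM, the 5 from 10 to 100 TPM and the 39 at or below 10 TPM, with a bar for the mean and SD over cells. H2afx is above 1 TPM in 10 of 13, 0 of 5 and 1 of 39 cells, whereas H2afz is high in all 3 sets.

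The threshold divided the cells unevenly. Just above it lay 5 marrow monocytes, with Top2a at 12.4, 13.3, 14.2, 16.4 and 65.1 TPM, and the other 13 exceeded 100 TPM. Just below it lay cells at 9.17, 8.67, 8.45 and 8.27 TPM. Hmgb2 had a median of 564 TPM in the 13 cells over 100 TPM of Top2a, 38.1 TPM in the 5 intermediate cells and 38.3 TPM in the 39 below. Likewise Hmgb1 had medians of 1790.4, 339 and 472 TPM in those sets, and H2afz had medians of 4210.4, 1648 and 1942 TPM. H2afx was above 1 TPM in 10 of 13, 0 of 5 and 1 of 39 cells, and Hmgn2 had medians of 1012, 18.8 and 226 TPM. In the medians of these genes the 5 intermediate cells were at or near the level of the cells below the threshold, or under it, and the higher levels belonged to the 13 cells.

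**Figure D4:**
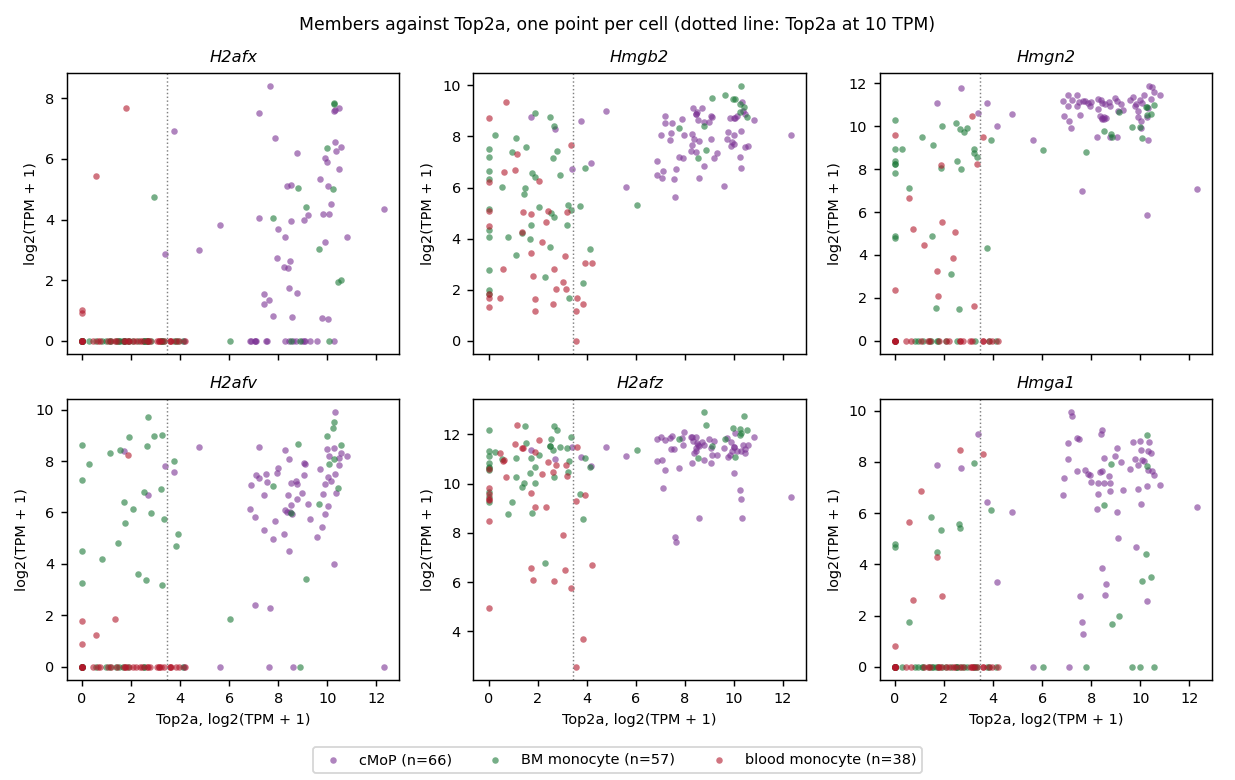
Each panel plots 1 of 6 genes against Top2a in single cells, both axes as log2(TPM + 1), coloured by population, with a dotted vertical line at 10 TPM of Top2a. The 13 marrow monocytes over 100 TPM of Top2a overlap the cMoP for Hmgb2 and H2afz, and no blood monocyte exceeds 17.4 TPM of Top2a.

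Cells with Top2a above 10 TPM could also be compared between stages, a comparison added after the values were seen. Between 18 such marrow monocytes and 63 such cMoP, 5 of the 10 genes were lower in marrow monocytes by at least 1 log2 unit, beside 25.1% of all measured genes, and none was higher by 1, beside 5.42%. They were Hmga1 (-3.86), Hmgn1 (-2.87), Hmgb3 (-2.18), Hmgn2 (-2.03) and Hmgn3 (-1.89). Hmgb1 (-0.61), H2afx (-0.39), Hmgb2 (-0.17), H2afv (-0.11) and H2afz (0.41) differed by less than 1 unit, and H2afv differed by 0.05 under median-ratio scaling. With Top2a over 100 TPM in both sets (13 marrow monocytes and 59 cMoP), Hmgn2 differed by -0.49 and Hmgb2 by 0.99, and Hmga1 (-3.41), Hmgn1 (-2.63), Hmgb3 (-2.35) and Hmgn3 (-1.68) were again lower by over 1 unit. Hmga1, Hmgn1 and Hmgb3 were thus lower in marrow monocytes than in cMoP also among cells with high Top2a, where Hmgb1, Hmgb2 and the H2A variants were not lower by 1 unit. The 63 cMoP had more detected genes than the 18 marrow monocytes (medians 6676 and 5236), and its part was not tested. The difference in lane also applies here. Hmgn3 was above 1 TPM in 1 of the 18 and 29 of the 63 cells, but it passed the filter only through cMoP, so no direction was read for it. At 4500 to 6000 detected genes, whatever their Top2a, marrow monocytes and cMoP differed in Hmgn3 by -0.33. Most cMoP in that window were libraries of over 15% mitochondrial or under 2% ribosomal protein TPM.

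The reverse set, cells with Top2a at or below 10 TPM, allowed a comparison of blood with marrow monocytes in 32 and 39 cells on a shared flow cell lane and at like numbers of detected genes (medians 4185.5 and 4405). 4 of the 10 genes were lower in blood by at least 1 log2 unit, beside 7.06% of all measured genes, and none was higher by 1, beside 3.01%. H2afv was above 1 TPM in 4 of 32 blood and 24 of 39 marrow cells and differed by -3.57, rank 6 from the lowest of all measured genes. Hmgn2 was above 1 TPM in 14 of 32 blood and 27 of 39 marrow cells and differed by -2.93, rank 21. Hmgb2 had a median of 15.9 TPM in blood and 38.3 TPM in marrow cells and differed by -1.33, and H2afz had a median of 1247 TPM in blood and 1942 TPM in marrow cells and differed by -1.15. Hmgb1 (0.06), H2afx (0.35), Hmga1 (-0.19), Hmgb3 (-0.26) and Hmgn1 (-0.48) lay within 1 unit. As log2 ratios of mean TPM, H2afv (-3.55) and Hmgn2 (-1.67) were again lower by at least 1, but Hmgb2 (-0.56) and H2afz (-0.60) were not. On that scale Hmgb3 (-1.21) and Hmgn1 (-2.91) were lower by at least 1 and H2afx was higher (2.41), each detected in few cells. The gaps of H2afv and Hmgn2 between marrow and blood were therefore present among cells with low Top2a, whereas Hmgb1 differed there by 0.06, with values from -0.83 (cells with 4500 to 6000 detected genes) to 1.11 (Top2a at or below 1 TPM) under the alternatives, so no direction was read for it.

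Ratios within a cell gave the balance of paralogs independently of the TPM scale. H2afv made up a median of 4.37% of H2afv plus H2afz in cMoP, 2.53% in marrow monocytes and 0% in blood monocytes, and it passed 10% in 9 of 66, 10 of 57 and 1 of 38 cells. Hmgb2 made up a median of 12.8% of Hmgb1 plus Hmgb2 in cMoP, 18.3% in marrow monocytes and 4.16% in blood monocytes. Within marrow monocytes the Hmgb2 share had a median of 20.6% in the 18 cells with Top2a above 10 TPM and 12.7% in the other 39, where it ran from 0.0977% to 100%. H2A.Z transcript was thus nearly all H2afz at every stage, and HMGB1 predominated over HMGB2 transcript in the median cell.

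Across the 57 marrow monocytes, which share 1 lane but differ in detected genes, log2 values of H2afx followed Top2a with Pearson r = 0.70 (Spearman rho = 0.63), Hmgb2 with r = 0.60 (rho = 0.49), Hmgb1 with r = 0.51 (rho = 0.56), H2afz with r = 0.49 (rho = 0.52) and Hmgn2 with r = 0.48 (rho = 0.52). The number of detected genes moved with the same transcripts, at r = 0.56 for H2afx, 0.42 for Hmgb2, 0.57 for Hmgb1, 0.38 for H2afz and 0.43 for Hmgn2, and its part was not tested. Hmgb1 followed the number of detected genes more closely than Top2a. In the 66 cMoP, nearly all of which had Top2a above the threshold, the mean log2 value of the G2 and M phase list correlated with Hmgb2 at r = 0.55 (rho = 0.53) and with H2afx at r = 0.48 (rho = 0.49). The S phase list there gave r = 0.09 for Hmgb2 and 0.04 for H2afx, but r = 0.62 for H2afz (rho = 0.26), 0.52 for Hmga1 (rho = 0.42), 0.44 for Hmgn2 (rho = 0.23) and 0.42 for Hmgb1 (rho = 0.29). With Top2a itself the cMoP gave r = 0.31 for H2afx, 0.15 for Hmgb2, -0.05 for H2afz and -0.13 for Hmgn2. The number of detected genes, from 4478 to 9971 in cMoP, gave r = 0.42 for Hmgb2, 0.40 for H2afz and 0.28 for Hmga1. It gave r = 0.17 for H2afx, 0.15 for Hmgn2 and 0.06 for Hmgb1, and its part was not tested there either. Between members, the closest pairs in marrow monocytes were Hmgb2 with H2afz (r = 0.59) and Hmgb2 with Hmgn2 (r = 0.57). These coefficients describe cells of 1 sample and carry no p-value.

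Over the same 57 cells, the genes most like each member by Pearson r were taken from all rows above 1 TPM in at least 25% of those cells. H2afx was most like Nuf2 (r = 0.78), a kinetochore subunit, Rrm2 (r = 0.77), a subunit of ribonucleotide reductase, and Pbk (r = 0.75), a mitotic kinase. Hmgb2 was most like Mki67 (r = 0.66), the replication-dependent histone Hist1h4d (r = 0.65) and the kinetochore gene Casc5 (r = 0.64). Hmgn2 was most like Stmn1 (r = 0.67), which destabilises microtubules, Lgals1 (r = 0.65), a galectin, and Srsf3 (r = 0.61), a splicing factor. Hmgb1 was most like Birc5, the mitotic survivin (r = 0.53), Hmga1 like the replicative helicase subunit Mcm4 (r = 0.54), and H2afv like Zfp414 and Stmn1 (r = 0.52 each). H2afz was most like Hmgb2 (r = 0.59) and Cmc2 (r = 0.56). H2afx, Hmgn1 and Hmgn3 were above 1 TPM in only 11, 12 and 4 of the 57 cells, so their coefficients, with top values of 0.56 for Hmgn1 and 0.59 for Hmgn3, rest on those few cells.

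The proteins that handle these histones were followed in lists chosen by function. Of 24 measured histone chaperones, 22 were lower in marrow monocytes than in cMoP by at least 1 log2 unit (median -2.81), beside 30.8% of all measured genes. The widest gaps were those of Rbbp7 (-4.95), a histone-binding subunit of several complexes, Ssrp1 (-4.90), a subunit of FACT, Nasp (-4.67), an H3-H4 chaperone, and Hat1 (-4.56), which acetylates new histone H4. Of 15 genes of the H2A.Z exchange complexes, 9 were lower by at least 1 (median -1.36), with Ruvbl2, an ATPase subunit, at -4.42 and Anp32e, which removes H2A.Z from nucleosomes, at -4.32. Of 13 genes of H2A.X signalling, 11 were lower by at least 1 (median -1.59). Of the 10 other HMG genes measured, 7 were lower and 1 higher by at least 1. Among 15 other variant and linker histones, 6 were lower and 1 was higher by at least 1, shares near those of all measured genes (30.8% and 3.94%). The higher one was H3f3a, an H3.3 gene, which averaged 2374 TPM in marrow monocytes and 1022 TPM in cMoP (difference 1.5), while H2afy, the gene of macroH2A1, differed by -2.24 and the linker histone Hist1h1b by -2.01.

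Between blood and marrow monocytes 6 of the 24 chaperones, 7 of the 15 exchange genes and 0 of the 13 H2A.X signalling genes were lower by at least 1, beside 9.66% of all measured genes. Npm1, a nucleolar chaperone, differed by -1.89, Anp32e by -2.09, and Vps72, the H2A.Z-binding subunit of the exchange complexes, by -1.70, beside -1.78 for H2afz itself. Among cells with Top2a at or below 10 TPM, 2 of the 24 chaperones and 1 of the 15 exchange genes were lower in blood by at least 1. The share of all measured genes there was 7.06%, and the list medians were -0.04 and -0.35. Within marrow monocytes, 17 of 24 chaperones, 4 of 15 exchange genes and 5 of 13 signalling genes were higher by at least 1 in cells with Top2a above 10 TPM, as were 6 of 15 other variant and linker histones, beside 14.5% of all measured genes. Asf1b, an H3-H4 chaperone of dividing cells, differed by 5.24, Anp32e by 4.16, Cenpa, the centromeric H3 variant, by 3.63 and the linker histone Hist1h1e by 3.60. For comparison, 27 of 30 S phase genes and 34 of 35 G2 and M phase genes were higher by at least 1 in those cells. The cMoP markers had a summed median of 17.4 TPM (1 to 2247) in the 18 cells and 7.42 TPM (0 to 555) in the other 39, with Kit at 0 in both. Of these 8 markers, 6 were higher and 1 was lower in the 18 cells. By at least 1 unit 4 were higher, beside 14.5% of all measured genes: Ctsg (1.84), Elane (1.60), Myb (1.39) and Prtn3 (1.35). The neutrophil markers had a summed median of 57.3 TPM (0 to 1340.0) and 15.4 TPM (0 to 1911) in those sets, with Ltf, Camp and Ngp at 0, and the erythroid markers passed 10 TPM in 2 of 18 and 0 of 39 cells, with Hbb-bs at 0. The part of these markers in the results was not tested.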

How the data were processed

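Single-cell mRNA libraries of 161 cells were analysed. The deposited values are TPM, abundances scaled by length and to a fixed total per cell, made by the authors with RSEM 1.2.19 on GRCm38, per the submitters' processing notes. Which aligner and annotation they used is not given in the sources used here. Column sums ran from 997939 to 999955 TPM, 18780 of 43280 rows were 0 in every cell, and every column matched 1 library (0 left over). Read depth cannot be recovered from TPM and is unknown.

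A difference is the mean over cells of log2(TPM + 1) in 1 set of cells minus that in another, with the SD over cells as its spread. The pseudocount of 1 understates differences of low genes. Genes counted as higher or lower past a difference of 1 log2 unit, 2-fold on that scale. Shares of cells carry 95% exact (Clopper-Pearson) intervals, and 0 cells the limit of 3 cells of the total, which cover the counting of cells only. With 1 sample per population, no test was run. The difference functions were tested on simulated data. The 10 genes and all lists were chosen with earlier results of these data known. Of other lists, the genes named are among the 4 with the largest absolute differences in that comparison. The 3 most similar genes per member were ranked by Pearson r, and up to 3 are named. Python 3.11.15, pandas 2.3.3, numpy 2.4.6, scipy 1.17.1 and matplotlib 3.10.9 were used. Alternatives changed the pseudocount, the filter, the scaling, the averaging, the Top2a threshold and the cells kept.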

Additional observations from a re-analysis of the deposited data

How the results depend on the processing

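Of 73 alternative values for the 5 comparisons (the number of genes past 1 log2 unit and the median difference), 66 stayed within the tolerance (a count within 1.5 times the reported one, a median within 1 SD over cells of the mean of the 10 genes) and 7 moved past it. That tolerance is wide: medians within it ran from -3.30 to -1.25 for marrow monocytes against cMoP. Of 390 values of single genes, 370 stayed within 1 SD over cells, 18 moved further, and 2 changed sign where the reported difference was over 1 unit. For marrow monocytes against cMoP, cells with Top2a above 10 TPM gave 5 genes lower by at least 1, beside 25.1% of all measured genes. Cells with 4500 to 6000 detected genes gave 4 genes and a median of -0.63, beside 12.9% of all measured genes, against 30.8% over all cells. Without low-quality libraries, the same window held 7 cMoP and gave 6 genes and a median of -1.33. H2afv, at -1.63 over all cells, was 0.76 in that window before the quality filter and 0.015 as a log2 ratio of mean TPM. For blood against marrow monocytes, the log2 ratio of mean TPM gave 8 genes and a median of -1.92. For blood monocytes against cMoP, the median was -4.75 with a pseudocount of 0.1 and -2.51 in cells with 4500 to 6000 genes, and median-ratio scaling moved the median of all genes to -0.45, against -0.58. The cause of these shifts was not tested. The cells with Top2a above 10 TPM, the cells without Top2a between 10 and 100 TPM and the settings on library quality were chosen after seeing the data. Unknown depth limits what a 0 means for Hmgn3, Hmgn1, H2afx and Hmgb3. No paired analysis was possible because no label pairs cells across populations.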
